A study of Sus scrofa with 22 samples.

Results

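The epidermal growth factor (EGF) family and its receptors were followed in endometrial cells of gilts on Day 12. The family was defined as 6 ligands (EGF, TGFA, HBEGF, BTC, AREG and EREG) and 4 receptors (EGFR, ERBB2, ERBB3 and ERBB4), which were looked up by NCBI Gene ID in 3 tables of read counts. Of these 10 genes, 8 were listed in at least 1 table, among 12401 genes in all. EGF, TGFA and the 4 receptors were listed for all 3 cell types, HBEGF only for luminal epithelium and BTC only for glandular epithelium. AREG and EREG were not listed and were not analysed here. The tables had been filtered by the authors for low values, so that a missing gene is not a gene at 0.

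The ligands of this family are made as membrane-anchored precursors that proteases of the ADAM group cut from the cell surface. They bind receptor tyrosine kinases that work as pairs: EGFR binds EGF, TGFA, HBEGF, BTC, AREG and EREG, ERBB4 binds HBEGF, BTC, EREG and the neuregulins, and ERBB3 binds neuregulins. ERBB2 has no known soluble ligand and serves as the partner of the others, while ERBB3 has little kinase activity and signals through its partner, mainly into the PI3K and AKT pathway. In the uterus, ligands of this family are known as signals between the epithelium and the conceptus during implantation.

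Stroma (S), glandular epithelium (GE) and luminal epithelium (LE) were cut from stained frozen sections by laser capture microdissection (LCM). All 8 gilts were prepuberal crossbreeds of German Landrace and Piétrain that had received PMSG and hCG to synchronise ovulation. The 4 pregnant gilts (01, 03, 05 and 14) were then inseminated with semen, and the 4 cyclic control gilts (02, 04, 06 and 13) with semen supernatant of the same boar, so that seminal plasma was given to both groups. One library per gilt was available for LE and GE, and 6 gilts (01, 05 and 14, and 02, 04 and 13) had an S library, which makes 22 libraries. Each library came from the RNA of few cells of 1 gilt, and fewer cells of a type and less RNA per cell cannot be told apart in such samples.

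The libraries held 893912 to 4020796 counts on listed genes, and the floor of 3 counts equalled 0.746 to 3.36 CPM (counts scaled to a common library total). The cell type labels were compared with marker genes summed per library. The 11 epithelium markers reached 3125 to 3495 CPM in the control libraries labelled S, near the 3144 to 3797 CPM of control LE. In pregnant gilts 01, 05 and 14 they reached 1226, 4163 and 2612 CPM in the libraries labelled S. Pregnant LE had 2437 CPM in gilt 01 and 3960 to 4305 CPM in the other gilts. The 11 listed fibroblast markers, which include VIM, COL1A1, COL3A1 and DCN, reached only 5339 to 9396 CPM in the control libraries labelled S, below the 13046 to 18981 CPM of control LE. Only the library labelled S of pregnant gilt 01 was rich in fibroblast markers (64942 CPM) and poor in epithelium markers (1226 CPM). The libraries labelled S of pregnant gilts 05 and 14 had 9024 and 12422 CPM of fibroblast markers, against 9855 to 14705 CPM in LE of gilts 03, 05 and 14. The control libraries labelled S and that of gilt 05 therefore went against their label. That of gilt 14 was within the fibroblast range of LE but had lower epithelium markers than LE of gilts 03, 05 and 14. The group is called "labelled S" in the following. The GE library of control gilt 02 also stood apart, with 48545 CPM of fibroblast markers, 7855 CPM of the 4 listed smooth muscle markers and 899 CPM of epithelium markers. The LE and GE libraries of pregnant gilt 01 had 25012 and 32304 CPM of fibroblast markers. Of 6 gland markers, 2 were listed for all 3 cell types, and they did not set GE apart from LE. Their sums were 282 to 495 CPM in control GE and 379 to 487 CPM in control LE. In pregnant gilts they were 507 to 537 and 434 to 729 CPM. No marker listed in all 3 tables was at 0 in a library. For members that were called, it is stated whether the call held without gilt 01 or, in comparisons with GE, without gilt 02. Other results are given without these libraries only in part.

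**Figure D1:**
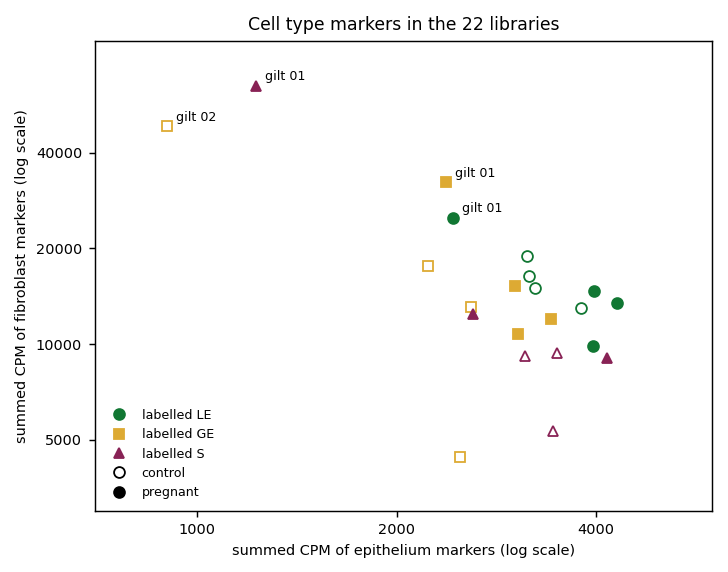
Summed CPM of 11 epithelium markers (x axis, log scale) against 11 fibroblast markers (y axis, log scale), 1 point per library, with the shape and colour giving the cell type label and filled points the pregnant gilts. The libraries labelled S lie among the epithelial libraries except that of gilt 01 at 64942 CPM of fibroblast markers, and the GE library of gilt 02 lies at 899 CPM of epithelium markers.

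The genes lie on different chromosomes of the pig assembly Sscrofa11.1, on which the reads were mapped. The ligands EGF (chr8:112235607-112330062) and BTC (chr8:70645721-70697538) lie on chromosome 8, HBEGF on chromosome 2 (chr2:142102455-142115192) and TGFA on chromosome 3 (chr3:71948232-72054257). EGFR lies on chromosome 9 (chr9:139302410-139474632), ERBB2 on chromosome 12 (chr12:22591621-22621384), ERBB3 on chromosome 5 (chr5:21474218-21495040) and ERBB4 on chromosome 15 (chr15:113966573-115096984).

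A codon in the kinase sets ERBB3 apart from the other receptors. The following 24 bases are the coding exon sequence of the catalytic loop in the pig genome, in the direction of the gene, and the capitals mark the codon of the catalytic residue. They are shown because ERBB3, whose share of the receptor mRNA was higher in pregnant gilts, differs here.

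EGFR, chr9:139465065-139465088, plus strand: caccgaGACctggcggccaggaat

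ERBB2, chr12:22594959-22594982, minus strand: cacaggGACctggctgcccgcaac

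ERBB3, chr5:21490614-21490637, plus strand: cacaggAACctggctgcccgaaat

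ERBB4, chr15:114022405-114022428, minus strand: catcggGATttagcagcccgtaat

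The codon reads as aspartate in EGFR, ERBB2 and ERBB4 and as asparagine in ERBB3. The receptors are otherwise distinct enough for counting. In windows of 31 bases, EGFR and ERBB2 transcripts shared 14 windows with each other, and none of the 5522 windows of ERBB3 or the 12376 windows of ERBB4 occurred in another annotated gene. EGF also shared none, whereas 3.87% of the windows of TGFA, 2.07% of HBEGF and 0.253% of BTC occurred in transcripts of other genes. How reads in such stretches were counted is not given in the sources used here.

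In LE, pregnancy was tested as pregnant against control gilts in 4 against 4 libraries, with calls at an FDR below 0.01. Of the 7 listed members, the receptor ERBB3 and the ligand TGFA were called, both higher in pregnant gilts, and 10.0% of all 11415 genes were called. HBEGF was higher and EGF, EGFR and ERBB4 were lower in all 4 pregnant libraries, but these 4 passed only an FDR of 0.05, which 22.4% of all genes passed. With DESeq2, or with edgeR's exact test or its likelihood ratio test, calls were made for 5 of the 7 members at an FDR below 0.01, with EGF, HBEGF and ERBB4 added, while 19.2%, 18% and 18.2% of all genes were called by these tests, in the same order. The groups did not overlap in 6 of the 7 members, compared with 26.7% of all genes. The median log2 fold change of the 7 members was −0.37, against 0.01 over all genes.

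ERBB3, the receptor with little kinase activity, stood at 55.4, 29.7, 19.8 and 68.6 CPM in LE of control gilts 02, 04, 06 and 13. In LE of pregnant gilts 01, 03, 05 and 14 it stood at 197, 572, 245 and 301 CPM. The lowest pregnant library was therefore above the highest control library. The increase was 7.57-fold (log2 fold change 2.92, SE 0.45, FDR 0.00146 in the quasi-likelihood test of edgeR). Without gilt 01 it was 3.10 on the log2 scale (FDR 0.00157), and ERBB3 was called without each of the 8 gilts in turn.

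TGFA, a ligand of EGFR, had few reads in control LE, with 2 to 11 counts per library. Its levels were 3.32, 2.67, 0.696 and 2.53 CPM in control gilts 02, 04, 06 and 13 and 9.34, 19.2, 27.2 and 19.7 CPM in pregnant gilts 01, 03, 05 and 14. The groups were separate, with the shallow library of gilt 01 (8 counts) closest to the controls. TGFA had a log2 fold change of 3.04 (SE 0.45, FDR 0.00120), and of 3.23 without gilt 01 (FDR 0.000791). TGFA was called without each gilt in turn, but was not tested when at least 10 counts were required in every library.

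HBEGF, a ligand of EGFR and ERBB4 that binds heparin, was at 4.43 to 7.31 CPM in control LE and at 24.5, 9.87, 22.1 and 9.68 CPM in pregnant gilts 01, 03, 05 and 14. The 2 highest and the 2 lowest pregnant libraries differed by more than the whole control range. This gave a log2 fold change of 1.496 (SE 0.39, FDR 0.0218). Of 8 fits that each left out 1 gilt, HBEGF was called in 1, that without gilt 14 (FDR 0.00987).

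EGF itself was lower, at 172, 211, 302 and 118 CPM in LE of control gilts 02, 04, 06 and 13 against 88.7, 116, 29.0 and 32.5 CPM in pregnant gilts 01, 03, 05 and 14. Pregnant gilt 03 almost reached control gilt 13. EGF thus had a log2 fold change of −1.62 (SE 0.46, FDR 0.0306).

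ERBB4, the receptor of neuregulins and HBEGF, was at 50.6 to 79.7 CPM in control LE and at 0, 5.71, 28.4 and 23.7 CPM in pregnant gilts 01, 03, 05 and 14. The count of 0 in the shallow library of gilt 01 allows a level of up to 3 counts (counting error only). These equal 3.36 CPM by its raw library total, a scale that differs slightly from that of the levels given here. ERBB4 had a log2 fold change of −1.996 (SE 0.59, FDR 0.0353), and −1.70 without gilt 01 (FDR 0.0200). EGFR, the receptor of EGF and TGFA, was at 88.2 to 118 CPM in control and 46.7 to 86.8 CPM in pregnant LE, with a log2 fold change of −0.68 (SE 0.21, FDR 0.0432, which was 0.0707 without gilt 01 and 0.00649 without gilt 14). ERBB2 overlapped between the groups, at 112.1 to 178 against 72.9 to 141 CPM (log2 fold change −0.37, SE 0.24, FDR 0.296, 95% interval −0.89 to 0.15).

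In GE, where an unadjusted p below 0.0021 was used, none of the 7 listed members was called by the quasi-likelihood test of edgeR, and 0.694% of all 11676 genes were called. At an unadjusted p below 0.05, TGFA and ERBB4 passed, as did 8.09% of all genes. The groups did not overlap for 1 member, TGFA, compared with 4.92% of all genes. The median log2 fold change of the 7 members was −0.44, against −0.02 over all genes.

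TGFA in GE was at 4.53, 4.29, 4.16 and 5.13 CPM in control gilts 02, 04, 06 and 13 and at 9.09, 7.55, 12.2 and 7.78 CPM in pregnant gilts 01, 03, 05 and 14. All pregnant libraries were above all control libraries. The log2 fold change was 1.01 (SE 0.31, unadjusted p = 0.00943, FDR 0.440 in edgeR). ERBB3 was at 85.3, 221, 108 and 372 CPM in control and 326, 721, 395 and 274 CPM in pregnant GE in the same order of gilts. Control gilt 13 lay above the 2 lower pregnant gilts, and the log2 fold change was 1.13 (SE 0.50, FDR 0.619 in edgeR).

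ERBB4 in GE was at 30.1, 146, 98.8 and 146 CPM in control gilts 02, 04, 06 and 13, and at 40.9, 67.0, 53.0 and 40.7 CPM in pregnant gilts 01, 03, 05 and 14. The overlap came from the library of gilt 02 alone, which is the control GE library rich in fibroblast markers (48545 CPM). GE of pregnant gilt 01 was also rich in them (32304 CPM). With all libraries, the log2 fold change was −1.06 (SE 0.44, unadjusted p = 0.040, FDR 0.590 in edgeR). Without gilt 02 it was −1.37 and passed the threshold (unadjusted p = 0.000448, FDR 0.200 in edgeR), and without the GE libraries of gilts 01 and 02 it was −1.28 (unadjusted p = 0.00160, FDR 0.361 in edgeR).

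BTC, a ligand of EGFR and ERBB4, was read mainly from the same library. It stood at 37.5 CPM (91 counts) in GE of control gilt 02 and at 0.954, 0.833 and 1.89 CPM (2 to 7 counts) in the other control gilts 04, 06 and 13. In pregnant gilts 01, 03, 05 and 14 it stood at 6.06, 7.85, 1.74 and 9.19 CPM, all below gilt 02. The log2 fold change of −0.71 (SE 1.16, FDR 0.903) turned to 2.26 without gilt 02 (unadjusted p = 0.0106, FDR 0.324 in edgeR), so that BTC has no direction that holds for all libraries. Gilt 02 also had the highest fibroblast, endothelium and smooth muscle marker sums in GE (48545, 1370 and 7855 CPM), and their part in this value was not tested.

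EGF differed widely among control GE libraries, with 33.8, 32.9, 182 and 1.62 CPM in gilts 02, 04, 06 and 13. Pregnant GE was at 27.3, 13.6, 14.5 and 5.30 CPM in gilts 01, 03, 05 and 14, inside the control range. The log2 fold change was −2.06 with a 95% interval from −4.42 to 0.30 (FDR 0.679). It ranged from −2.48 to −0.57 without single gilts, the latter without control gilt 06, which had the highest level. EGFR was at 153 to 336 CPM in control and 131 to 262 CPM in pregnant GE (log2 fold change −0.44, SE 0.30, FDR 0.749), and ERBB2 at 47.0 to 94.7 and 58.7 to 107 CPM (0.38, SE 0.27, FDR 0.759).

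In the libraries labelled S, 3 pregnant and 3 control gilts were compared at an unadjusted p below 0.0021. EGF and ERBB4 were called, both lower in pregnant gilts, of 6 listed members, and 1.47% of all 11532 genes were called. The groups did not overlap in 4 of the 6 members (EGF, ERBB2, ERBB3 and ERBB4), compared with 17.6% of all genes. The median log2 fold change of the 6 members was −0.28, against 0.08 over all genes.

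EGF was at 218, 139 and 148 CPM in the control libraries labelled S of gilts 02, 04 and 13 and at 12.9, 17.4 and 10.4 CPM in those of pregnant gilts 01, 05 and 14. All pregnant libraries lay far below all control libraries. The decrease was 12.3-fold (log2 fold change −3.62, SE 0.33, unadjusted p = 8.36e-06, FDR 0.0296 in edgeR). Without gilt 01, the only library of this label that was rich in fibroblast markers, it was again −3.62 (unadjusted p = 5.96e-05, FDR 0.0541 in edgeR), and it was called without each of the 6 gilts in turn.

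ERBB4 was at 156, 126 and 77.6 CPM in control gilts 02, 04 and 13 and at 21.8, 35.8 and 16.5 CPM in pregnant gilts 01, 05 and 14. The groups were separate. The log2 fold change was −2.27 (SE 0.40, unadjusted p = 0.000646, FDR 0.0995 in edgeR). It kept its sign but was lost as a call without gilt 01 (−2.22, unadjusted p = 0.00282), gilt 02 (−2.03, 0.00307), gilt 04 (−2.23, 0.00263) or gilt 14 (−2.03, 0.00217), at FDRs of 0.157, 0.364, 0.202 and 0.130 in edgeR.

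ERBB3 was at 122, 160 and 85.3 CPM in control gilts 02, 04 and 13 and at 182, 390 and 247 CPM in pregnant gilts 01, 05 and 14 labelled S, with a log2 fold change of 1.16 (SE 0.37, FDR 0.277). ERBB2 was at 102.9 to 153 CPM in control and 69.5 to 97.8 CPM in pregnant gilts (−0.63, SE 0.26, FDR 0.391). TGFA overlapped, at 4.09 to 6.22 and 3.68 to 11.7 CPM (0.84, SE 0.57, FDR 0.613). EGFR also overlapped, at 143 to 227 and 118 to 294 CPM, and its log2 fold change of 0.08 (SE 0.41) changed sign when single gilts were left out, with values from −0.46 to 0.33.

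**Figure D2:**
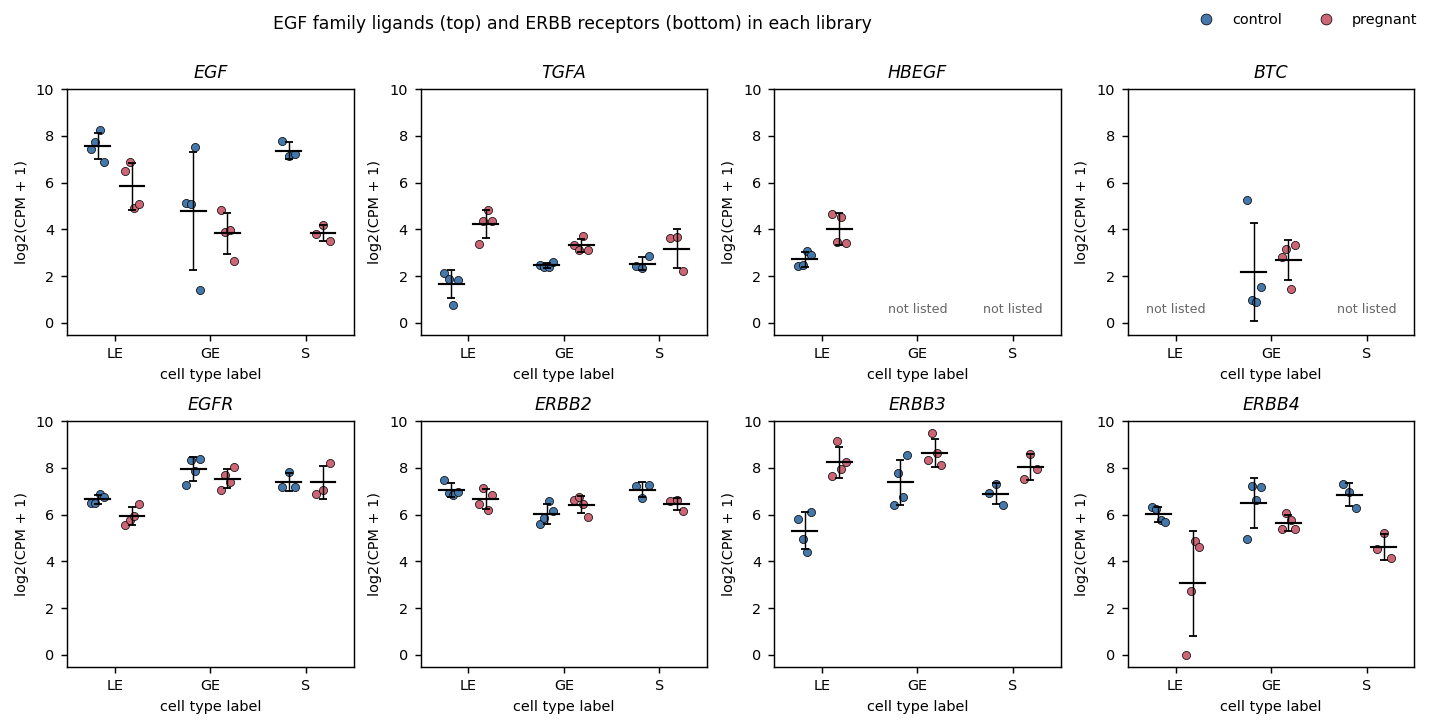
Level of each member as log2(CPM + 1) in every library (y axis), by cell type label (x axis) and pregnancy status (colour), with the mean and SD of each group as bars (n = 4 per group in LE and GE, n = 3 labelled S). ERBB3 was higher in all pregnant than in all control libraries of LE, and EGF was lower in all pregnant than in all control libraries labelled S, while BTC was high in a single GE library.

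**Figure D3:**
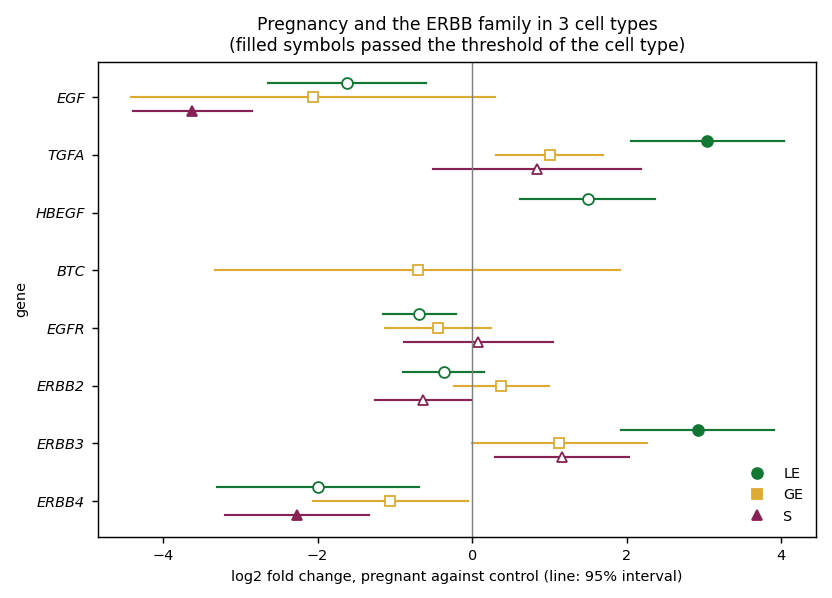
Log2 fold change of pregnant against control gilts (x axis) for each member (y axis) in LE (circles), GE (squares) and libraries labelled S (triangles), with the 95% interval as a line and filled symbols for members past the threshold of the cell type. ERBB3 and TGFA in LE and EGF and ERBB4 in the libraries labelled S were called, and no member in GE.

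The proteins are made from different transcripts, so that levels of different members were compared only as CPM per kb of exon. In control LE, EGF had the highest mean at 34.8 ± 13.5 CPM per kb (SD, n = 4), followed by ERBB2 at 27.4 ± 6.02, EGFR at 19.99 ± 2.84, ERBB3 at 7.81 ± 4.06, ERBB4 at 5.21 ± 1.19, HBEGF at 2.15 ± 0.54 and TGFA at 0.40 ± 0.20. ERBB2 was above EGF in control gilts 02 (36.3 against 29.9 CPM per kb) and 13 (25.4 against 20.4). In pregnant LE, ERBB3 was the highest at 59.2 ± 30.2 CPM per kb, ahead of ERBB2 at 21.2 ± 6.17, EGFR at 12.3 ± 3.50, EGF at 11.6 ± 7.46, HBEGF at 6.26 ± 2.98, TGFA at 3.30 ± 1.28 and ERBB4 at 1.17 ± 1.11. By mean, ERBB3 thus moved from the fourth place to the first on the scale of CPM per kb.

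The same scale gives the make-up of the receptor mRNA in each library. ERBB3 made up 14.1%, 9.91%, 6.57% and 19.6% of the receptor counts per kb in LE of control gilts 02, 04, 06 and 13, and 56.9%, 72.1%, 60.2% and 56.0% in LE of pregnant gilts 01, 03, 05 and 14. ERBB2 made up 40.5% to 51.4% in control LE, where it was the largest part except in gilt 06 (42.1%, against 43.3% of EGFR), and 20.1% to 28.3% in pregnant LE. The part of ERBB4 was 0% to 3.13% in pregnant LE and 6.49% to 11.2% in control LE. In GE, the share of EGFR was 41.8% to 52.7% in control and 20.8% to 44.7% in pregnant gilts, and that of ERBB3 20.8% to 41.9% and 42.2% to 65.4%. In the libraries labelled S, the share of ERBB3 was 18.9% to 27.4% in control and 37.5% to 59.0% in pregnant gilts. ERBB3 was thus a larger part of the receptor mRNA in every pregnant than in every control library of each label, although its own level overlapped between the groups in GE, where the highest control share (41.9%) almost reached the lowest pregnant share (42.2%). These shares are a description and were not tested. Those of ERBB4 depend on the division by length, with means of 18.9% in control and 3.06% in pregnant LE without it.

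Among the ligands, EGF made up 87.6% to 94.8% of the counts per kb in control LE and 27.8% to 74.0% in pregnant LE, where HBEGF held 13.7% to 46.0% and TGFA 6.22% to 27.0%. In the libraries labelled S, where only EGF and TGFA were listed, EGF made up 95.9% to 98.03% in control and 53.1% to 73.7% in pregnant gilts. In GE the make-up differed among control gilts, with 17.8% to 97.2% of EGF, 0.546% to 54.5% of BTC and 2.25% to 56.8% of TGFA. The ligand counts behind the shares of GE were low in single libraries (32 counts in control gilt 13).

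**Figure D4:**
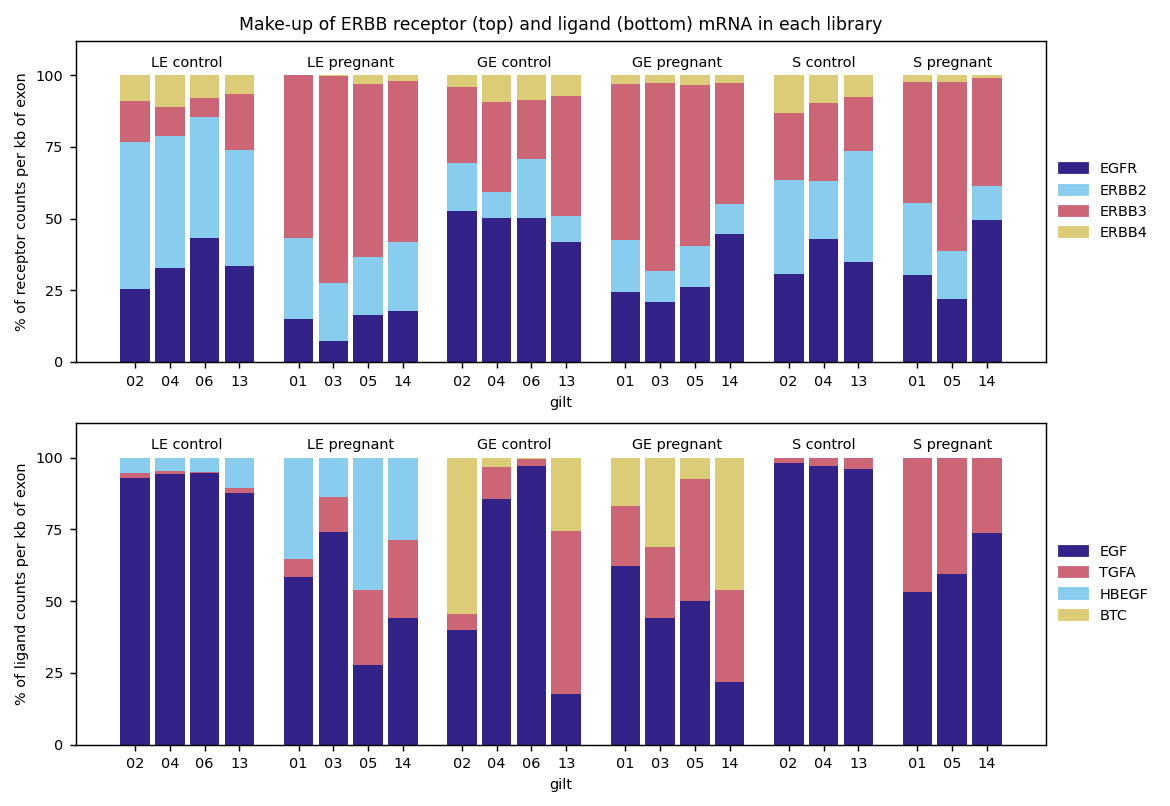
Share of each receptor (top) and each listed ligand (bottom) in the summed counts per kb of exon of that class (y axis, percent), 1 bar per library, grouped by cell type label and pregnancy status. ERBB3 made up 6.57% to 19.6% of the receptor counts per kb in control LE and 56.0% to 72.1% in pregnant LE, and EGF made up at least 87.6% of the ligand counts per kb in control LE.

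The cell types were compared within gilts in a joint fit of the 22 libraries, with the gilt as a block and over the 10643 genes listed in all 3 tables (FDR below 0.01). EGFR was higher in GE than in LE in both groups. In control gilts, EGFR had means of 266 CPM in GE and 102 CPM in LE, and it was higher in GE in 4 of 4 gilts (log2 difference 1.33, SE 0.21, FDR 0.00577). In pregnant gilts, EGFR had means of 194 and 63.1 CPM and was again higher in GE in 4 of 4 gilts (1.62, SE 0.22, FDR 0.000304). ERBB3 was higher in GE than in LE of control gilts, with means of 200 and 44.1 CPM, in 4 of 4 gilts (2.14, SE 0.38, FDR 0.00783), and showed a log2 difference of 0.39 (SE 0.36, FDR 0.442) in pregnant gilts. Calls between GE and LE were made for 2 of 6 members in control gilts (1.84% of all genes) and 1 of 6 in pregnant gilts (15.8%).

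The call of EGFR in pregnant gilts held without each gilt in turn. In control gilts it was lost, at FDRs up to 0.0458, without gilt 01, 04, 05, 13 or 14, and that of ERBB3, at FDRs up to 0.0575, without any gilt except 02, although the log2 differences stayed at 1.18 to 1.51 and 1.97 to 2.57. Without the block, both calls were lost in control gilts (FDR 0.0234 for each). With gilt 01 and the GE library of gilt 02 left out, both were called (EGFR 1.497, FDR 0.00965, and ERBB3 2.53, FDR 0.00779).

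EGF showed lower values in GE than in LE in 4 of 4 control and 4 of 4 pregnant gilts, with log2 differences of −2.53 (SE 0.62, FDR 0.0211) and −2.09 (SE 0.62, FDR 0.0219), which did not pass the threshold. Among the fits that left out 1 gilt, they passed it only without gilt 06 in control gilts (−3.16, FDR 0.00899) and only without gilt 13 in pregnant gilts (−2.09, FDR 0.00328). ERBB2 had a log2 difference of −1.02 (SE 0.25, FDR 0.0214) in control gilts, in 4 of 4 gilts, and −0.27 (SE 0.25, FDR 0.446) in pregnant gilts. TGFA was higher in GE than in LE in 4 of 4 control gilts and lower in 4 of 4 pregnant gilts (1.02, SE 0.40, FDR 0.113, and −1.10, SE 0.33, FDR 0.0231), again without a call. ERBB4 had log2 differences of 0.69 (SE 0.56, FDR 0.459) and 1.85 (SE 0.62, FDR 0.0392).

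Of the libraries labelled S, only EGFR was called against LE, with a log2 difference of 1.43 in pregnant gilts (SE 0.24, FDR 0.00367, higher in 3 of 3 gilts, 3.14% of all genes called). It was lost as a call without gilt 01 (1.56, FDR 0.0200) and without gilt 14 (1.31, FDR 0.0313). In control gilts, no member and 0.0% of all genes were called between these libraries and LE (692 of all genes and 3 of 6 members at an unadjusted p below 0.05 in edgeR). Between these libraries and GE, no member and 0.0% of all genes were called in control gilts (1891 genes and 3 members at an unadjusted p below 0.05 in edgeR) and again none and 0.0% in pregnant gilts (310 genes and 0 members). The likelihood ratio test of edgeR called 1 member and 2.69% of all genes between libraries labelled S and GE of control gilts. Epithelium markers were near LE levels in these libraries except in pregnant gilts 01 and 14 (1226 and 2612 CPM). The comparison is therefore one of libraries and labels.

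The levels in the 6 groups, normalised over the 22 libraries, had the following order. ERBB3 was highest in pregnant GE (437 ± 213 CPM, SD, n = 4), then in pregnant LE (336 ± 171, n = 4), pregnant libraries labelled S (270.5 ± 109, n = 3), control GE (200 ± 134, n = 4), control libraries labelled S (124 ± 40.0, n = 3) and control LE (44.1 ± 22.96, n = 4), and neighbours overlapped in range except the last pair. EGF was highest in control LE (204 ± 78.5, n = 4) and in control libraries labelled S (169 ± 40.2, n = 3) and lowest in pregnant GE (15.4 ± 9.07, n = 4) and pregnant libraries labelled S (13.4 ± 3.60, n = 3), with pregnant LE (68.3 ± 44.2, n = 4) and control GE (63.9 ± 83.0, n = 4) between them, and here control libraries labelled S and pregnant LE were the only neighbours whose ranges did not overlap. ERBB4 went from 121 ± 39.0 CPM (n = 3) in control libraries labelled S over control GE, control LE, pregnant GE and pregnant libraries labelled S to 14.7 ± 13.99 CPM (n = 4) in pregnant LE, with a gap in range only between pregnant GE and pregnant libraries labelled S. EGFR was lowest in pregnant LE and next in control LE, each apart in range from its upper neighbour, and the other 4 groups overlapped. TGFA was lowest in control LE, apart from control GE above it, and the ranges of ERBB2 overlapped between all neighbours.

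Whether pregnancy acted differently on a member in GE than in LE was tested as an interaction in the joint fit. No member and 0.395% of all genes passed an FDR of 0.01. The nearest were TGFA, with a log2 change that was 2.12 lower in GE than in LE (−2.12, SE 0.52, FDR 0.0448), and ERBB3 (−1.75, SE 0.52, FDR 0.0864, and −2.20 with an FDR of 0.0351 without gilt 01 and the GE library of gilt 02). For ERBB4, EGFR, EGF and ERBB2 the interaction was 1.15 (SE 0.83), 0.29 (SE 0.30), 0.44 (SE 0.86) and 0.75 (SE 0.35), with FDRs from 0.293 to 0.861. Between libraries labelled S and LE, no member and 0.0188% of all genes passed (1622 genes and 3 members at an unadjusted p below 0.05 in edgeR), and between those and GE none and 0.0% of all genes (1054 genes and 2 members at an unadjusted p below 0.05 in edgeR). The calls of ERBB3 and TGFA in LE and of EGF and ERBB4 in libraries labelled S are therefore not shown to be particular to these cells.

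The genes that make, relay and limit ERBB signals were described from 5 lists of known pathway genes. In LE, where 10.0% of all genes were called, 17 other genes of the pathway lists were called. Among 17 listed inhibitors, 6 rose and 1 fell. DUSP4, a phosphatase of the MAP kinases, rose from 5.27 ± 1.93 to 222 ± 26.1 CPM (SD, n = 4 each, log2 fold change 5.40, SE 0.25, FDR 6.55e-06), and DUSP5, a phosphatase of nuclear ERK, from 17.7 ± 6.30 to 73.1 ± 21.8 CPM (2.06, SE 0.32, FDR 0.00148). DUSP6, the phosphatase of cytoplasmic ERK, fell from 193 ± 42.9 to 39.2 ± 25.1 CPM (log2 fold change −2.26, SE 0.37, FDR 0.00207). The other called inhibitors, RNF41, a ubiquitin ligase of ERBB3, SOCS4, PTPN1 and ERRFI1, which binds the kinase of EGFR, rose by 1.04 to 1.61 on the log2 scale. The median of the list was 0.12, against 0.01 over all genes.

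Of 38 listed relay genes, 6 rose and 1 fell in LE, again beside 10.0% of all genes called, with a median log2 fold change of 0.14 against 0.01 over all genes. GAB1, the adaptor that couples receptors to PI3K, rose from 64.4 ± 9.38 to 548 ± 162 CPM (SD, n = 4 each, log2 fold change 3.09, SE 0.24, FDR 5.25e-05). STAT5A, a transcription factor, rose from 20.2 ± 4.95 to 88.8 ± 19.7 CPM (2.14, SE 0.25, FDR 0.000356), and AKT2, a kinase downstream of PI3K, fell from 125 ± 16.4 to 54.1 ± 14.1 CPM (−1.23, SE 0.20, FDR 0.00228). PIK3CD, MAP2K1 and STAT5B, of PI3K, the MAP kinase cascade and STAT signalling, rose by 0.91 to 1.71 on the log2 scale.

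Of 10 listed sheddases and their chaperones, which release the ligands, ADAM17 and ADAM9 were called in LE, with means of 50.7 ± 5.77 and 111.9 ± 30.9 CPM for ADAM17 (log2 fold change 1.15, SE 0.21, FDR 0.00382) and 96.7 ± 15.4 and 218 ± 45.4 CPM for ADAM9 (1.17, SE 0.19, FDR 0.0022). The median of this list was 0.49. Of 15 listed early target genes, only FOSL1, a subunit of AP-1, was called, a share near that of all genes, at 0 to 0.69 CPM in control LE, at or under 3 counts, and at 6.56 to 10.5 CPM in pregnant LE (FDR 0.000522). The neuregulins NRG1 and NRG2, the listed ligands of ERBB3 and ERBB4, were not called. NRG1 had means of 41.0 and 14.2 CPM in control and pregnant LE (log2 fold change −1.41, SE 0.53).

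In GE, 2 of 17 listed inhibitors were called. DUSP4 rose from 4.99 ± 3.62 to 41.7 ± 19.2 CPM (log2 fold change 3.07, SE 0.53, unadjusted p = 0.000278, FDR 0.141 in edgeR) and DUSP5 from 3.53 ± 1.97 to 17.2 ± 7.86 CPM (2.27, SE 0.50, unadjusted p = 0.00148, FDR 0.280 in edgeR; SD, n = 4 each). None of the 37 relay genes, 10 sheddases and chaperones, 15 early targets and 2 neuregulins was called, with 3, 1, 0 and 0 of them at an unadjusted p below 0.05 in edgeR, which 8.09% of all genes passed, beside 0.694% of all genes called. In the libraries labelled S, none of the 38 relay genes, 17 inhibitors, 10 sheddases and chaperones, 14 early targets and 1 neuregulin was called, with 6, 3, 2, 1 and 0 at an unadjusted p below 0.05 in edgeR, which 12.5% of all genes passed, beside 1.47% called.

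**Figure D5:**
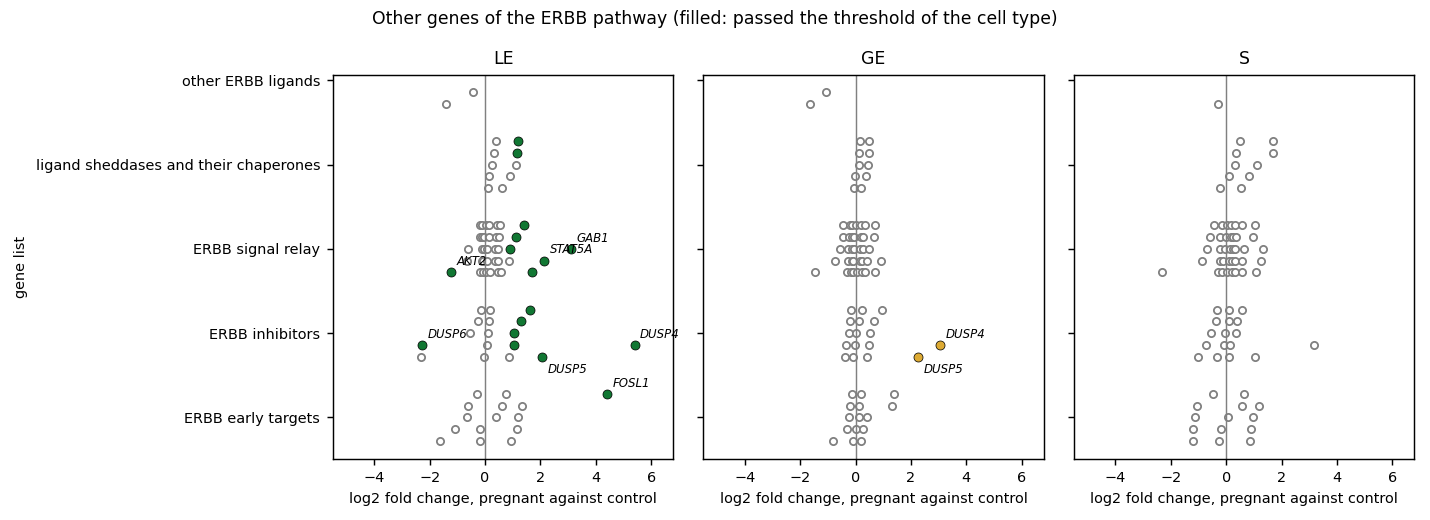
Log2 fold change of pregnant against control gilts (x axis) for the listed genes of 5 pathway lists (y axis) in LE, GE and libraries labelled S, with filled points for genes past the threshold of the cell type. In LE, DUSP4, FOSL1 and GAB1 lie farthest to the right and DUSP6 farthest to the left among the filled points, and no point is filled for the libraries labelled S.

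Markers of cell types were compared between the groups as well. In LE, 6 of 11 epithelium markers were called, against 10.0% of all genes, with ELF3 and CLDN3 higher (log2 fold changes 1.11 and 1.91) and KRT19 and KRT7 lower (−2.19 and −1.65). None of the 11 fibroblast, 9 endothelium, 6 leukocyte and 4 smooth muscle markers was called in LE, with 4, 5, 4 and 2 at an unadjusted p below 0.05 in edgeR, which 35.6% of all genes passed. In the libraries labelled S, KRT7 was called (−3.14, FDR 0.122), with sums of epithelium markers of 3125 to 3495 CPM in control and 1226 to 4163 CPM in pregnant gilts. In GE, none of the 11 epithelium, 11 fibroblast, 9 endothelium, 7 leukocyte and 7 smooth muscle markers was called. Of them 2, 0, 0, 3 and 0 passed an unadjusted p below 0.05 in edgeR, beside 8.09% of all genes. The part of these differences in the values of the ERBB family was not tested.

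The 200 bases before the annotated start of the 4 called members are shown because ERBB3 and TGFA rose together in LE and EGF and ERBB4 fell together in the libraries labelled S. They are given in the direction of the gene, and capitals mark, on either strand, the GC box, spelled GGGCGG, and the box that is named for its letters CCAAT. The TATA box, searched on both strands as TATAAA, and the AP-1 site are not in these windows.

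TGFA, chr3:71948032-71948231, plus strand: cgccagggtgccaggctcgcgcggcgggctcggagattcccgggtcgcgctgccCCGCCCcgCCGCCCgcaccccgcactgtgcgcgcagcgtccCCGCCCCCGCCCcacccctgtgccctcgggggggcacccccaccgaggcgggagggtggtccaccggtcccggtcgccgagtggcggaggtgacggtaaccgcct

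ERBB3, chr5:21474018-21474217, plus strand: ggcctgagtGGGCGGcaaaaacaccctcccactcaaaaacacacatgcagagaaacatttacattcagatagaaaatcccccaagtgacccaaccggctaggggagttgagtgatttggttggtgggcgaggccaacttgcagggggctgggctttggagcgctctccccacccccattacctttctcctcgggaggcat

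EGF, chr8:112330063-112330262, minus strand: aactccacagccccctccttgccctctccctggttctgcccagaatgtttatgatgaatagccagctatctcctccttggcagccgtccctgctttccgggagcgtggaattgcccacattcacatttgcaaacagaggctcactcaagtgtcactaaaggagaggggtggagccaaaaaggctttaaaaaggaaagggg

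ERBB4, chr15:115096985-115097184, minus strand: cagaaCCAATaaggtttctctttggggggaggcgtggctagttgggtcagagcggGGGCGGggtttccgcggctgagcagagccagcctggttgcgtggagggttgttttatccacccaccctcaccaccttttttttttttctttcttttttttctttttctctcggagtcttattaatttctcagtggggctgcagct

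The window of TGFA held 4 GC boxes, 2 of which lie side by side, with 80.5% G and C. ERBB3 and ERBB4 held 1 GC box each, ERBB4 also 1 CCAAT box, and EGF none of the 4 motifs, with 52.5% G and C. Of the windows of 12397 listed genes, 53.3% held a GC box, 28.8% a CCAAT box, 5.64% a TATA box and 3.25% an AP-1 site (searched as TGANTCA, with N for any base), and the median was 62.0% G and C.

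Across the 22 libraries, ERBB3 and TGFA had a Pearson r of 0.75 in log2 CPM, ERBB3 and EGF one of −0.67, and ERBB4 and EGFR one of 0.63, as descriptions over libraries that share gilts and cell types. Among the 10642 other genes, those closest to ERBB3 were PLPP2 (r = 0.91), RAB11FIP1 (0.90) and S100A14 (0.90), and those closest to TGFA were REL, a subunit of NF-kappaB, SMAP2 and TNIP1 (each 0.87). The closest to EGF were IL18R1, a chain of the interleukin 18 receptor, ALG10 and NAAA (each 0.95), and to ERBB4 RALGPS2 (0.93), LOC110257135 (0.93) and ATP8A1 (0.91).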

How the data were processed

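RNA was sequenced from LE, GE and S cells collected by LCM from 4 pregnant and 4 control gilts. As described by the authors, 5 bases were removed from the read starts, reads were mapped with Hisat2 to Sscrofa11.1, PCR duplicates were removed with the 8 random bases of the adapter, and genes were filtered by CPM at a level not given in the sources used here, nor are the counter and its use of strand. The deposited tables, 1 per cell type, hold read counts without normalization, checked as whole numbers. Groups were taken from the sample labels. Members and gene lists were chosen with earlier results of these data known.

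Counts were fitted per cell type in edgeR 4.0.16 (R 4.3.3) with TMM, estimateDisp and the quasi-likelihood F test over all listed genes. The thresholds followed the study (FDR, Benjamini-Hochberg, below 0.01 in LE, and unadjusted p below 0.0021 in GE and S, with the FDR beside it). In the study, 0.0021 was the p value belonging to that FDR in its own LE test. It was not recomputed for the test used here, so the thresholds of LE and of GE and S are not matched. SE is the log2 fold change divided by the root of F. Cell types were compared in 1 joint fit of 22 libraries with the gilt as a fixed block (FDR below 0.01). Libraries of 1 gilt share the animal, and their deviations from group means correlated with medians of 0.257 (LE and GE), 0.314 (LE and S) and 0.468 (GE and S), against −0.0754, −0.138 and −0.188 between different gilts. Subtracting group means forces the values between different gilts to go against those of the same gilt, so they are no separate evidence. CPM values use TMM library sizes, and a count of 3 is the floor, whose CPM was taken from the raw library total. Depth was 893912 to 4020796 counts, and floors cover counting error only. Intervals of log2 fold changes were built from the SE of the quasi-likelihood test, which includes the estimated spread between libraries. Levels between genes were compared per kb of merged exon of NCBI annotation release 106, in which all 12401 gene IDs were matched. Sequences were read from the Sscrofa11.1 genome of RefSeq.

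Named genes were all members, the called genes of each list (the 2 largest increases and decreases without overlap in CPM where more than 4 were called) and the 3 genes with the highest Pearson r over 22 libraries (prior count 2) for each called member. Genes named outside this rule were chosen after their values were seen. Alternatives were library size alone or RLE, filterByExpr or a minimum of 10 counts per library, the likelihood ratio test and the exact test, DESeq2 1.42.0, other thresholds, the 6 gilts with an S library, no block, a random block (limma 3.58.1 voom, correlation 0.268), leaving out each gilt, and, added after seeing the data, leaving out gilt 01 and the GE library of gilt 02. The procedure was tested on simulated counts.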

Additional observations from a re-analysis of the deposited data

Results flagged for a closer look

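BTC in GE of control gilt 02 stood at 37.5 CPM, far from the next library of its group at 1.89 CPM, a gap of 0.971 of the range of the 4 libraries against a critical value of 0.829 (Dixon, 95%). Of 28 groups of 4 libraries examined over the members in LE and GE, this was the only 1 past that value, and chance alone would place about 1 in 20 groups there. The same library had the highest fibroblast marker sum (48545 CPM) among the GE libraries and the lowest epithelium marker sum (899 CPM), and their part in the level of BTC was not tested.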

How the results depend on the processing

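In LE, 2 members were called, and 1 when at least 10 counts were required in every library (TGFA was then not tested), 5 with each of the exact, likelihood ratio and DESeq2 tests, 6 at an FDR below 0.05, and 2 to 4 without single gilts (4 without gilt 14, with EGFR and HBEGF added). In GE, 0 members were called, and 1 (ERBB4) without the libraries of gilts 01 and 02, and 0 to 1 without single gilts. BTC in GE moved from −0.71 to 2.27 without gilts 01 and 02 and ranged from −1.10 to 2.26 without single gilts. In the libraries labelled S, 2 members were called, 1 at an FDR below 0.05, 0 at an FDR below 0.01, and 1 to 2 without single gilts, and EGFR ranged from −0.46 to 0.33. Between GE and LE of control gilts, 2 members were called, 0 without the block of gilts, and 4 each with the random block, with the likelihood ratio test and at an FDR below 0.05, and 0 to 3 without single gilts. In pregnant gilts, 1 was called, 1 without the block, 2 with the random block, 4 each with the likelihood ratio test and at an FDR below 0.05, and 1 to 2 without single gilts, and ERBB2 ranged from −0.43 to 0.034. Between libraries labelled S and LE of pregnant gilts, 1 was called, 0 without the block and without gilt 01 and the GE library of gilt 02, 2 each with the random block, the likelihood ratio test and an FDR below 0.05, and 0 to 1 without single gilts. In this comparison ERBB3 moved from 0.03 to −0.31 without the block and to −0.15 with the random block and ranged from −0.26 to 0.24 without single gilts, and ERBB2 ranged from −0.39 to 0.17. EGF in GE ranged from −2.48 to −0.57 without single gilts. Between libraries labelled S and GE of control gilts, the likelihood ratio test called 1 member instead of 0. Of the interactions of GE and LE, 1 (TGFA) was called instead of 0 with the likelihood ratio test and at an FDR below 0.05, and EGF moved from 0.44 to −0.48 without the block and ranged from −0.18 to 1.10 without single gilts. The counts of calls were otherwise the same with and without either block. The cause of these shifts was not tested. Among values of single members under the alternatives, 634 kept their direction and their side of the threshold, 38 passed it in addition, 25 no longer passed it and 12 changed direction. The shares of ERBB3 and EGF moved by less than 1 SD when counts were not divided by length. Other shares moved by more. The mean share of ERBB4 rose from 8.68% (SD 1.98) to 18.9% in control LE and from 10.2% (SD 2.86) to 21.5% in control libraries labelled S. ERBB2 fell from 45.1% (SD 4.89) to 38.9% in control LE, and EGFR from 48.7% (SD 4.73) to 42.9% in control GE. Depth limits TGFA, BTC, ERBB4 and EGF, with lowest counts of 2, 2, 0 and 6 in a library. At an FDR below 0.01, 0.0% of all genes were called in the libraries labelled S. With at least 10 counts in every LE library, 10.1% of the tested genes were called, and 0.565% in GE without gilts 01 and 02. Without the block, 0.15% and 9.56% were called between GE and LE of control and pregnant gilts. Between libraries labelled S and LE of pregnant gilts it was 0.893% without the block. Without gilt 01 and the GE library of gilt 02 it was 1.01%. Of all genes, 22.4% were called in LE at an FDR below 0.05, 0.251% in the libraries labelled S at that FDR, 8.84% and 21.8% between GE and LE of control and pregnant gilts with the likelihood ratio test, 4.83% and 16.8% with the random block, and 11.7% and 29.5% at an FDR below 0.05, 4.93%, 10.3% and 14.6% between libraries labelled S and LE of pregnant gilts with the random block, the likelihood ratio test and that FDR, and 3.03% and 2.93% of the interactions with the likelihood ratio test and that FDR.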
